A study of Homo sapiens with 6 samples.

Results

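The genes described here build the centromere and the kinetochore, together with sororin (CDCA5) and the chromosomal passenger genes that act beside them. They were the 35 genes of a list chosen by name, with earlier results of these data known. Each was found once by its symbol among 27451 gene rows of a table of poly-A RNA sequencing. The libraries came from MDA-MB-231, a human line established from a breast cancer, and fell into a DMSO group of 3 libraries (the vehicle) and an H182 group of 3 libraries (2 µM of this compound for 2 h). The series title concerns azetidine-based Stat3 inhibitors, and the labels give no other agent or genotype. Values were in TPM, a share of each library's transcripts corrected for their length, so the depth behind them was unknown. Whether the replicates were separate cultures is not said in the labels, and the p-values therefore cover only library-to-library spread, which may be technical.

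The centromere is the chromosomal site marked by nucleosomes that carry the histone H3 variant CENP-A. On it stands the constitutive centromere-associated network (CCAN), the inner kinetochore, which in mitosis recruits the microtubule-binding outer kinetochore made of the KNL1, MIS12 and NDC80 complexes. The spindle checkpoint reports unattached kinetochores, and the chromosomal passenger complex corrects wrong attachments. Many of these genes are transcribed mainly in G2 and mitosis in cycling cells, while parts of the inner kinetochore are present throughout the cycle.

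The line's markers matched its label, with VIM at 3430 to 4051 TPM and CD44 at 957 to 1188 TPM, while ESR1, PGR and CDH1 stayed at or below 0.28 TPM. Among markers of leukocytes, endothelium and fibroblasts, COL1A1 at 6.81 to 8.37 TPM was the highest in every library. Libraries of one group correlated at r = 0.9928 to 0.9942 across the 12294 genes tested and libraries of different groups at 0.9787 to 0.9806. Over all genes tested, the log2 change had a median of -0.09 in TPM and of 0.00 after median-of-ratios scaling, which divides each library by a factor set by its typical gene. Because that shift touches small changes, both values are given below where they differ in call.

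Of the 35 genes, 16 fell with H182 and none rose in TPM (limma, adjusted p under 0.05), where 18.7% of all genes tested fell and 5.3% rose. At an unadjusted p under 0.05, 21 members passed (20 lower, and CENPM higher), as did 4599 of the 12294 genes tested. After median-of-ratios scaling 10 of the same 16 fell and CENPM rose, against 6.78% of all genes lower and 7.88% higher. The median log2 change of the 35 was -0.16, and -0.06 after that scaling. Every H182 library lay below every DMSO library in 22 genes and above in 1, where this held for 32.7% and 8.67% of all genes tested. The summed level of the 35 genes was 3341, 3315 and 3313 TPM in the DMSO libraries and 2787, 2839 and 2876 TPM in the H182 libraries. The change was therefore uneven, largest in the CENP-A chaperone HJURP and not past the threshold in 9 of the 11 genes of the inner kinetochore. In bulk RNA, fewer cells in G2 or mitosis and less RNA per cell cannot be told apart.

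**Figure D1:**
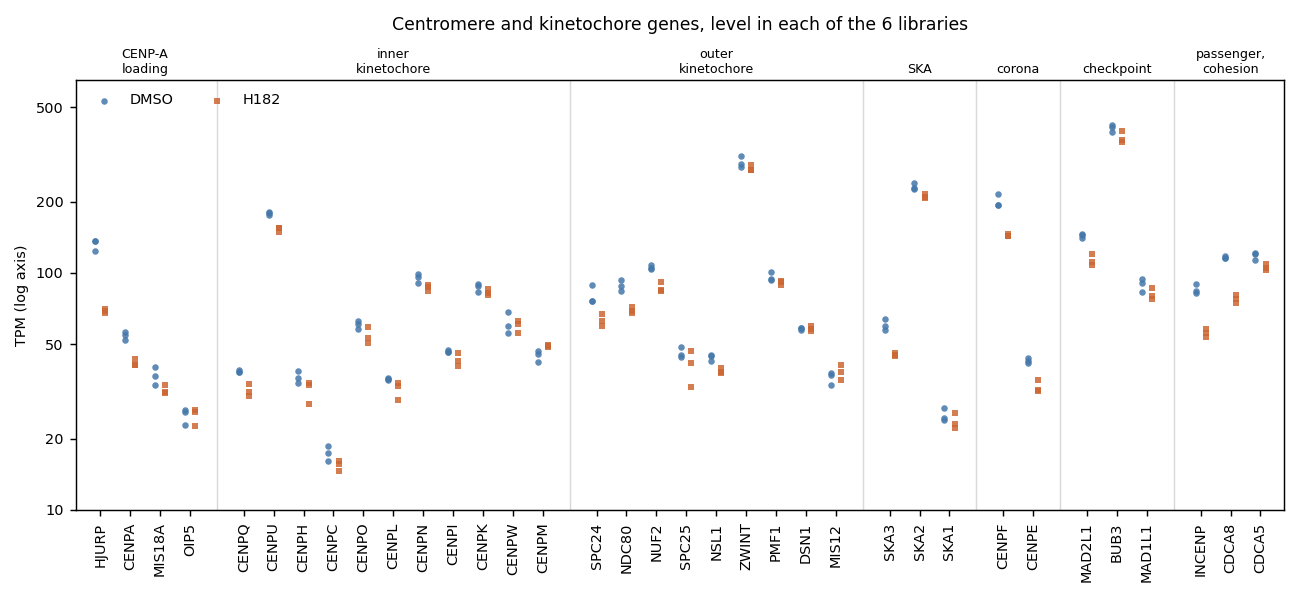
Level of each of the 35 genes in TPM (log axis) in 3 DMSO libraries (circles) and 3 H182 libraries (squares), grouped by role. The HJURP points separate most, at 123 to 137 TPM against 67.9 to 70.4 TPM, while the points of DSN1, OIP5 and CENPW lie over each other.

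The members carry short cell cycle motifs unevenly, and whether these bear on the changes was not tested. The promoters of the 4 members with the lowest p in these data are shown first. Each is the RefSeq sequence (GRCh38.p14) of the 250 bases before the RefSeq start site, 5′ to 3′ on the gene's strand. They lie at chr2:233854536-233854785 (minus strand), chr1:37692266-37692515 (plus), chr11:62123761-62124010 (plus) and chr1:214602945-214603194 (plus), and GENCODE places the start of HJURP, CDCA8 and INCENP somewhat further upstream. Capitals mark the CHR motif TTTGAA, the core of an element bound by MuvB complexes in many G2 and mitosis genes, and the CCAAT box CCAAT, bound by the factor NF-Y, each on either strand.
HJURP: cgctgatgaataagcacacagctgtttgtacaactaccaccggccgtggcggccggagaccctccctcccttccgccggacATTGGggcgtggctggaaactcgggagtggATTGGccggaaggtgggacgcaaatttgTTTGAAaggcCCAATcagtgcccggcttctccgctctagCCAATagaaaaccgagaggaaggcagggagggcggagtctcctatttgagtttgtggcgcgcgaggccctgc
CDCA8: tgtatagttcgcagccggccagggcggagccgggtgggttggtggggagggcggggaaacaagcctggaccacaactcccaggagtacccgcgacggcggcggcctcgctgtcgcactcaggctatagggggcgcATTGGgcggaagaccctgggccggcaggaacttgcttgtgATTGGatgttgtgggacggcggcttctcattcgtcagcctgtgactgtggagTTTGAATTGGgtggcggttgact
INCENP: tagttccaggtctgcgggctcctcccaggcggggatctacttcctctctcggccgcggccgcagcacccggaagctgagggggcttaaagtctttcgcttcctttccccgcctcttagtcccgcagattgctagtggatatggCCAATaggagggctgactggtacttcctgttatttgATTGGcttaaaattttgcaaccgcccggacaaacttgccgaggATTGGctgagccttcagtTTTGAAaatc
CENPF: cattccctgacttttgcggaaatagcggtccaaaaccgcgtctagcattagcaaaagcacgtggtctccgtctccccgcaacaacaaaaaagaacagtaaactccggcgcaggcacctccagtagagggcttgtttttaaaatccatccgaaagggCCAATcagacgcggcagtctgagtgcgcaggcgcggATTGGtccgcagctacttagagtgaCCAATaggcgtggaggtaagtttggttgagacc

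HJURP held 1 CHR match, at position -111 from its RefSeq start, CDCA8 at -23, INCENP at -10 and CENPF at 41, after the start and past the stretch shown. In CDCA8 the CHR match and a CCAAT match share a base. Promoters were found for 30 of the 35 genes, each from 250 bases before to 50 after the start. TTTGAA or its reverse complement lay in 15 of the 30, against 15.4% of 27305 promoters and 9.52% of the promoters of genes tested. CCAAT lay in 63.3% of the 30, against 35.7% and 37.0% of the same backgrounds. The E2F sites TTTCGCGC, TTTGGCGC and TTTCCCGC lay in 5 of the 30 (16.7%, against 2.79% of all promoters and 4.76% of those of genes tested), and the heat shock element half-site pair GAANNTTC in CENPW only, against 6.87% and 4.58%.

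Among the members with a CHR match 9 of 15 fell, with a median change of -0.34 on the log2 scale. Among those without one 7 of 15 fell, with a median of -0.13, where 18.7% of all genes tested fell. After median-of-ratios scaling all of those 9 with a match still fell, and of those 7 without a match only CENPE did. With that scaling 6.78% of all genes tested fell, and the difference between the 2 sets of members was not tested. Over all genes tested with a promoter, the medians were -0.12 with the motif and -0.09 without it. CENPE and SPC24 fell without a match, and SKA1 and ZWINT had a match and did not pass. A match describes the letters in this window and shows no binding.

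**Figure D2:**
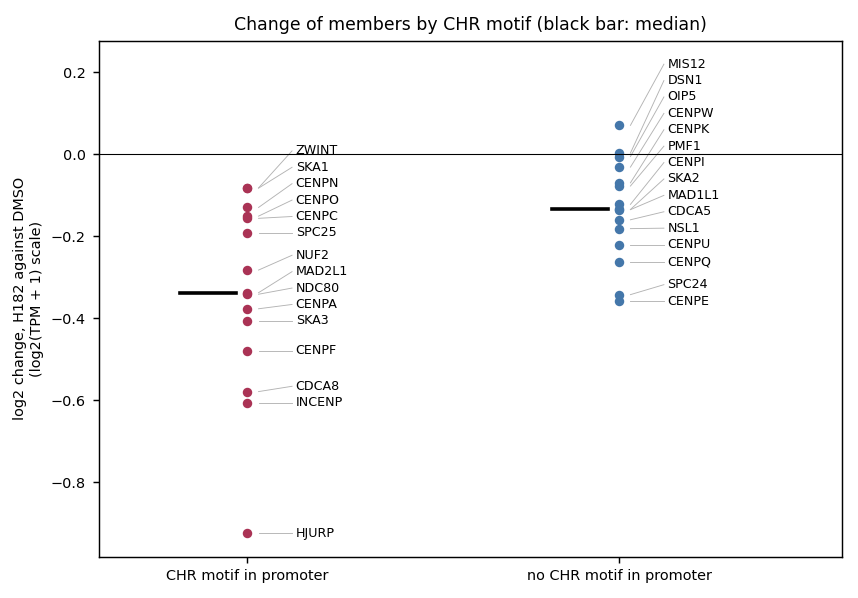
Change of 30 members on the log2(TPM + 1) scale, split by whether the promoter holds TTTGAA on either strand, with each gene named and the median as a black bar. The medians are -0.34 with the motif and -0.13 without it, and the 2 columns overlap between -0.36 and -0.08.

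CENP-A is renewed at centromeres once per cycle by its chaperone HJURP, which the MIS18 complex directs there. HJURP (ENSG00000123485.11, GRCh38 chr2:233833416-233854566, minus strand) stood at 123, 136 and 137 TPM in DMSO and at 67.9, 68.9 and 70.4 TPM in H182. All H182 libraries were far below all DMSO libraries, a level 47.7% lower. The log2 change of HJURP was -0.92, with an SE of 0.0518 and an adjusted p of 1.61e-06, and only 0.390% of the genes tested changed by as much or more downwards.

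CENPA itself (chr2:26764289-26801067, plus strand), the histone that HJURP carries, fell less. It stood at 54.8, 52.3 and 56.5 TPM in DMSO and at 40.7, 41.1 and 43.5 TPM in H182, without overlap (log2 change -0.38, SE 0.0554, adjusted p = 0.00131). It shares part of its locus with SLC35F6 on the same strand. The MIS18 subunit genes did not pass in TPM: MIS18A had means of 36.8 ± 3.31 TPM with DMSO and 32.1 ± 1.30 TPM with H182 (SD, n = 3 each; limma adjusted p = 0.0949). OIP5, which encodes the partner subunit MIS18-beta, stood at 22.8, 26.5 and 25.8 TPM in DMSO and, overlapping them, at 22.6, 25.8 and 26.4 TPM in H182, with a 95% interval of the log2 change from -0.20 to 0.18.

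Of the 11 genes of the inner kinetochore, 2 fell in TPM, a share near the 18.7% of all genes tested, and none after median-of-ratios scaling. Their median change was -0.14, near the -0.09 of all genes. CENPU, which recruits the kinase PLK1 to the inner kinetochore, stood at 179, 181 and 175 TPM in DMSO and at 155, 154.5 and 149 TPM in H182. The groups did not overlap, and the fall was small (log2 change -0.22, SE 0.0383, adjusted p = 0.00326; -0.12 and adjusted p = 0.0936 after median-of-ratios scaling). CENPQ, of the same subcomplex, stood at 38.9, 38.1 and 38.2 TPM against 33.9, 31.4 and 30.3 TPM (limma adjusted p = 0.0132, and 0.134 after that scaling).

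The other 9 genes of the inner kinetochore did not pass in TPM. CENPC, the scaffold that links CENP-A nucleosomes to the MIS12 complex, had the lowest level of all 35 genes, at 16.1, 18.5 and 17.4 TPM in DMSO and 15.6, 14.6 and 16.1 TPM in H182. CENPN, which binds the CENP-A nucleosome directly, was at 95.2 ± 4.33 and 86.9 ± 2.43 TPM, and its partner CENPL at 35.6 ± 0.386 and 32.3 ± 2.80 TPM. CENPN overlaps CMC2 on the other strand. CENPH, CENPI and CENPK, partners in 1 subcomplex, had log2 changes of -0.18, -0.12 and -0.07, CENPO -0.15 and the histone-fold gene CENPW -0.03. In CENPN, CENPL, CENPH and CENPI every H182 library lay below every DMSO library, as in 32.7% of all genes tested. In CENPC, CENPK, CENPO and CENPW the groups overlapped.

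CENPM, which joins CENPH, CENPI and CENPK, was the only member with every H182 library above every DMSO library. It stood at 47.0, 42.2 and 45.3 TPM in DMSO and at 48.7, 49.8 and 48.9 TPM in H182. The log2 change was 0.13 in TPM (limma adjusted p = 0.124) and 0.23 after median-of-ratios scaling (adjusted p = 0.0268), and it also passed after quantile normalization (0.0418).

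The outer kinetochore holds the NDC80 complex, the main microtubule coupler, and the MIS12 complex, its platform. Of the 9 genes, counted with ZWINT, 4 fell in TPM and 2 after median-of-ratios scaling, where 18.7% and 6.78% of all genes tested fell. Their median change in TPM was -0.18, against -0.09 for all genes tested. NDC80 (chr18:2571511-2616635, plus strand) stood at 87.9, 93.6 and 84.1 TPM in DMSO and at 72.0, 69.3 and 67.5 TPM in H182. Its dimer partner NUF2 stood at 104, 105 and 108 TPM against 84.5, 83.7 and 91.9 TPM. In both genes the groups lay apart, with log2 changes of -0.34 and -0.28 (limma adjusted p = 0.00184 and 0.00346).

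SPC24 and SPC25 form the dimer of the NDC80 complex that faces the centromere. SPC24 stood at 76.0, 76.1 and 89.2 TPM in DMSO and at 59.5, 67.2 and 62.7 TPM in H182 (log2 change -0.34, adjusted p = 0.00905, and 0.0594 after median-of-ratios scaling). Several members, among them CENPO, CENPU, NUF2, SPC25 and MIS12, overlap genes on the other strand, and no source used here says whether reads were counted by strand, so their levels carry that uncertainty. SPC25 ran from 44.3 to 48.6 TPM in DMSO and from 33.2 to 46.6 TPM in H182, which overlap, and had the widest interval of the members, from -0.43 to 0.05, which holds the change of SPC24.

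Of the MIS12 complex, NSL1 passed by a small margin, at 44.9, 44.5 and 42.6 TPM in DMSO against 38.3, 39.7 and 38.0 TPM in H182 (log2 change -0.18, limma adjusted p = 0.0361). It did not pass after median-of-ratios scaling (0.357), with a replicate block (0.0599) or without any one of the 6 libraries (0.0543 to 0.107). DSN1 was level, at 58.2 ± 0.578 and 58.3 ± 1.48 TPM, with an interval from -0.10 to 0.11. MIS12 was at 36.2 ± 2.35 and 38.1 ± 2.75 TPM, and PMF1 at 96.2 ± 4.18 and 91.1 ± 1.56 TPM. PMF1 shares its locus with the readthrough PMF1-BGLAP, listed at means of 5.83 and 7.19 TPM. ZWINT, which binds KNL1 and the checkpoint complex RZZ, was the second highest of the 35 genes, at 294 ± 15.3 and 277 ± 8.21 TPM, and did not pass (adjusted p = 0.219).

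The SKA complex stabilises the grip of NDC80 on microtubules. SKA3 (chr13:21153595-21176602, minus strand) stood at 63.8, 59.4 and 57.7 TPM in DMSO and at 45.1, 45.9 and 44.7 TPM in H182. The groups were well apart (log2 change -0.41, SE 0.0547, adjusted p = 0.000791). SKA2, at 226, 228 and 241 TPM against 210, 215 and 208 TPM, passed narrowly in TPM (log2 change -0.13, adjusted p = 0.0342). It did not pass after median-of-ratios scaling (0.666), with a replicate block (0.0556) or without any one of the 6 libraries (0.0515 to 0.119). SKA1 was at 25.1 ± 1.57 and 23.6 ± 1.85 TPM and did not pass.

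The fibrous corona is the outermost layer that forms on unattached kinetochores, and the members CENPF and CENPE, which belong to it, both fell. CENPF (chr1:214603195-214664588, plus strand), a large coiled-coil protein used as a marker of G2 cells, stood at 216, 194 and 193 TPM in DMSO and at 143, 143 and 145 TPM in H182. The log2 change was -0.48 (SE 0.0492, adjusted p = 0.000132). CENPE, the kinesin that carries chromosomes to the spindle equator, stood at 43.8, 42.3 and 41.7 TPM against 32.1, 31.7 and 35.3 TPM (log2 change -0.36, adjusted p = 0.00304). Neither gene's groups overlapped, and both passed after median-of-ratios scaling.

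Of the 3 spindle checkpoint genes, MAD2L1, the MAD2 protein that is loaded onto CDC20 to hold back anaphase, fell. It stood at 146, 145 and 140 TPM in DMSO and at 108, 111 and 120 TPM in H182 (log2 change -0.34, SE 0.0492, adjusted p = 0.00123). MAD1L1, its anchor at the kinetochore, was at 89.4 ± 5.88 and 81.3 ± 4.62 TPM with overlapping groups. BUB3, which docks BUB1 and BUBR1, was the most abundant member, at 414, 423 and 396 TPM in DMSO and 357, 363 and 396 TPM in H182. H182 replicate 3 lay within the DMSO range there, and BUB3 missed the threshold with it (limma adjusted p = 0.0545) and passed without it (0.0150).

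INCENP and CDCA8 changed together. INCENP, the scaffold of the chromosomal passenger complex (chr11:62123973-62153163, plus strand), stood at 89.7, 84.1 and 82.6 TPM in DMSO and at 55.7, 53.9 and 57.8 TPM in H182. CDCA8, its subunit borealin (chr1:37692418-37709719, plus strand), stood at 116, 118 and 115 TPM against 74.7, 80.6 and 77.3 TPM. Both groups lay far apart, with levels 34.7% and 33.3% lower and log2 changes of -0.61 (SE 0.0523) and -0.58 (SE 0.0453), at adjusted p = 4.01e-05 and 1.91e-05. CDCA5, sororin, which guards cohesion between sister chromatids until anaphase, stood at 120, 113 and 121 TPM against 103, 105 and 109 TPM. It passed in TPM (log2 change -0.16, adjusted p = 0.0330) and not after median-of-ratios scaling (0.438). Without DMSO replicate 1 or 3, or H182 replicate 1 or 2, its adjusted p was 0.0894 to 0.105.

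**Figure D3:**
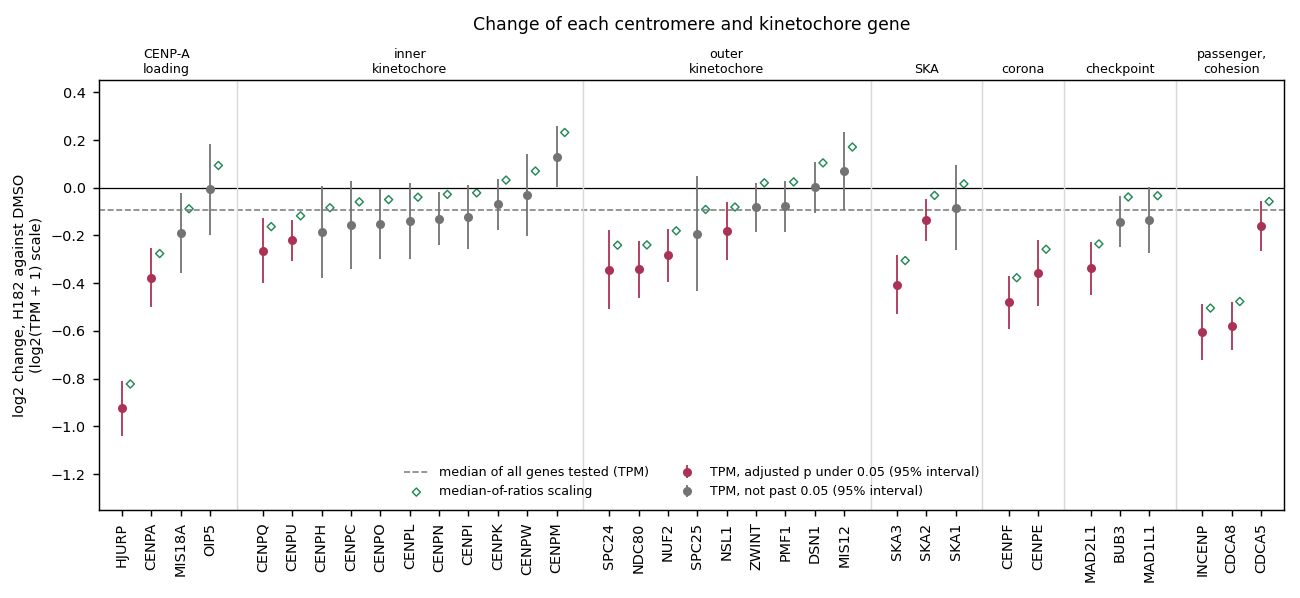
Change of each member on the log2(TPM + 1) scale with its 95% interval from limma (circles, red where the adjusted p is under 0.05), and after median-of-ratios scaling (green diamonds). The dashed line is the median of all genes tested in TPM, -0.09, and most inner kinetochore genes lie near it while HJURP lies at -0.92.

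A ratio of 2 genes within a library is free of any scaling of that library. For 9 pairs of partners, chosen after levels had been seen, such ratios were compared with an exact two-sided permutation test, whose smallest p for 3 against 3 is 0.1. HJURP to CENPA was 2.25, 2.60 and 2.42 in DMSO and 1.67, 1.68 and 1.62 in H182. SKA3 to SKA2 was 0.282, 0.260 and 0.240 against 0.215, 0.213 and 0.215. These 2 ratios, and those of SKA3 to SKA1, MAD2L1 to MAD1L1 and CENPF to CENPE, were lower in every H182 library. Each had the smallest p this test can give (exact permutation p = 0.1, adjusted p = 0.18 over the 9 pairs), so none could pass. CDCA8 to INCENP was 1.36 ± 0.0655 and 1.39 ± 0.0900 (SD, n = 3 each) with overlapping groups (exact permutation p = 0.8), and NDC80 to NUF2 was 0.839 ± 0.0574 and 0.805 ± 0.0617 (exact permutation p = 0.6). The groups also overlapped for SPC24 to SPC25, at 1.75 ± 0.209 and 1.59 ± 0.309 (exact permutation p = 0.5), and for CENPH to CENPK (exact permutation p = 0.6).

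Of the 7 roles, the inner kinetochore had the summed TPM that changed least (H182 to DMSO ratio 0.913). Lower values of the other roles against it therefore follow in part from that choice. Set against the summed TPM of the inner kinetochore, the CENP-A loading genes were at 0.354 ± 0.0165 in DMSO and 0.262 ± 0.00764 in H182. The corona genes were at 0.347 ± 0.0169 and 0.276 ± 0.00362, and the passenger and cohesion genes at 0.456 ± 0.00773 and 0.373 ± 0.00717. In these 3 roles the groups did not overlap. For the outer kinetochore, the SKA complex and the checkpoint genes they did, at 1.21 ± 0.0339 against 1.19 ± 0.0242 for the first. Such sums lean on their most abundant genes. In DMSO, HJURP made up 132 of the 248 TPM of the CENP-A loading genes. CENPF made up 201 of the 244 TPM of the corona genes. A lower sum therefore does not describe each gene of a role.

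**Figure D4:**
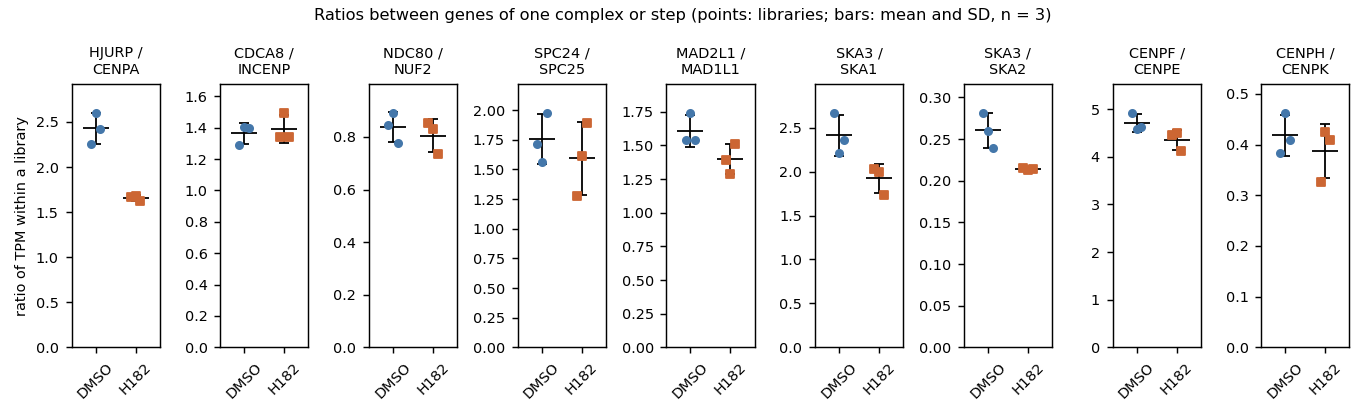
Ratio of TPM between partner genes within each library, for 3 DMSO libraries (circles) and 3 H182 libraries (squares), with mean and SD (n = 3), each panel starting at 0. HJURP to CENPA drops from 2.43 to 1.66, while CDCA8 to INCENP stays at 1.36 and 1.39.

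Across the 35 genes the change went only weakly with the DMSO level (Spearman rho = -0.24), the gene's length on the chromosome (-0.27) and its exonic length (-0.24). These are descriptions across genes measured in the same 6 libraries.

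Of 32 other genes of the centromere and kinetochore, 21 fell and none rose in TPM, with a median of -0.27, where 18.7% and 5.3% of all genes tested did. After median-of-ratios scaling 15 of them fell and 1 rose, where 6.78% and 7.88% of all genes tested did. The one that rose after that scaling, named after its values were seen, was KNTC1 of the RZZ complex of the corona (log2 change 0.19, limma adjusted p = 0.0338). In TPM KNTC1 changed by 0.09 and did not pass (limma adjusted p = 0.279), and after quantile normalization none of the 32 rose. HASPIN, the kinase whose mark on histone H3 recruits the passenger complex, stood at 26.6, 28.7 and 30.0 TPM in DMSO and at 12.8, 13.95 and 12.9 TPM in H182, a larger change than that of HJURP (log2 change -1.05, adjusted p = 1.08e-05). ERCC6L, a helicase that resolves DNA bridges at anaphase, changed by -0.70, and the alpha-satellite binder CENPB by -0.50. PLK1 changed by -0.46, the kinesin KIF2C, which removes faulty attachments, by -0.44, and AURKB, the kinase of the passenger complex, by -0.37 (249 ± 5.10 to 192 ± 4.40 TPM). These 6 passed with both scalings, and all were lower in each H182 library. CENPP (0.22) and ZWILCH (-0.21) had the largest changes among those that did not pass. Without DMSO replicate 1 ZWILCH changed by -0.33 and passed (limma adjusted p = 0.00914), and with 1 library left out CENPP ran from 0.09 to 0.35.

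Of 40 other mitotic genes (cyclins, kinesins, condensins and spindle genes), 36 fell in TPM and 31 after median-of-ratios scaling, with a median of -0.33. The shares of all genes tested that fell were 18.7% in TPM and 6.78% after that scaling. Of 35 DNA replication genes, 13 and 5 fell, with a median of -0.15. The 35 centromere and kinetochore genes, at 16 and 10 and a median of -0.16, thus lay between these lists in count. The differences between the lists were not tested, and the part of cell cycle position in any of these falls was not tested. All these lists were chosen with earlier results of these data known.

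**Figure D5:**
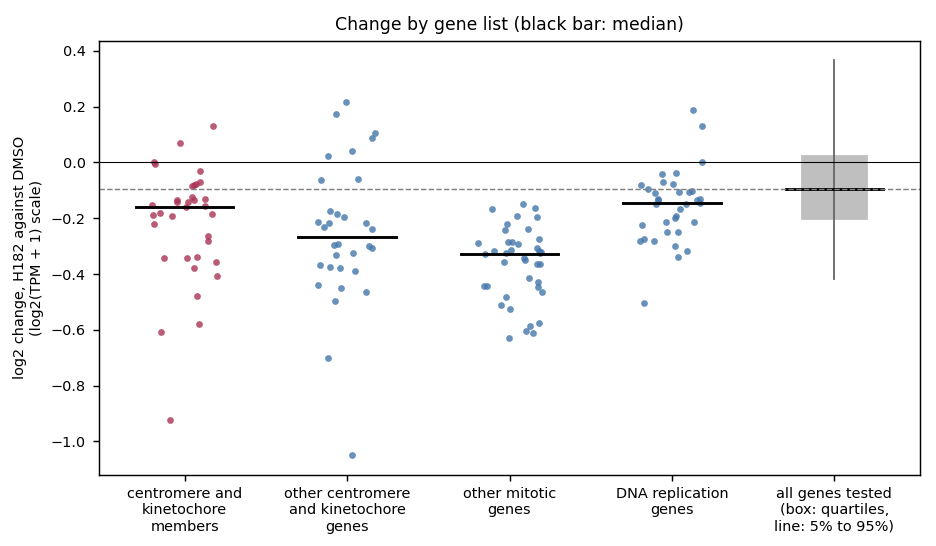
Change of each gene on the log2(TPM + 1) scale in 4 gene lists, with the median as a black bar, beside all 12294 genes tested (box of quartiles, line from the 5% to the 95% quantile). The 40 other mitotic genes all lie below 0, with a median of -0.33, while the 35 members spread from -0.92 to 0.13 around -0.16.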

How the data were processed

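Poly-A RNA of MDA-MB-231 cells was sequenced in 3 DMSO and 3 H182 libraries, made with a stranded kit per the labels' protocols. The authors deposited TPM per gene, rounded to 2 decimals. STAR 2.5.0, RSEM 1.2.25 and GRCh38 are named in the submitters' processing notes, and the annotation and strand setting are not given in the sources used here. TPM keeps no depth and sums to 1000000, so strongly raised genes lower the share of all others.

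Spike-in rows (92, all at 0) and 24 second rows of X and Y genes were left out. The 12294 genes that averaged 1 TPM or more, all 35 members among them, were tested as log2(TPM + 1) with limma 3.58.1 in R 4.3.3 (moderated with a mean-variance trend, two-sided, Benjamini-Hochberg over all genes, threshold 0.05) after a test on simulated data. Fold changes on this scale understate those of low genes. Every adjusted p of a single gene comes from that fit, or from a limma refit under the setting that its sentence names. "Rose" and "fell" mean past the threshold.

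Members and lists were chosen with earlier results of these data known. All members could be named. Of the other kinetochore genes, the 6 passing with the lowest p in each direction and the 2 largest changes not passing were named, and promoters were printed for the 4 members with the lowest p. Coordinates are from GENCODE 29, which held all 35 identifiers in the same version. Figures were drawn with matplotlib 3.10.9.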

Additional observations from a re-analysis of the deposited data

How the results depend on the processing

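The counts of calls, the members' median and each gene named as a member or other kinetochore gene by the rule were recomputed under 17 alternatives (the ratios, role sums, motif medians and length relations were not): pseudocounts, filters, scalings, variance model, library weights, replicate block, threshold, the readthrough sum and each library left out. Of the 16 members that fell, 10 kept their call under all 17 (HJURP, CDCA8, INCENP, CENPF, SKA3, MAD2L1, CENPA, NDC80, CENPE and NUF2). CENPU and SPC24 lost it only after median-of-ratios scaling, CENPQ there, after quantile normalization and at a threshold of 0.01, and CDCA5, SKA2 and NSL1 under 8, 11 and 11 alternatives. After median-of-ratios scaling 10 members fell and 1 rose (CENPM), their median was -0.059, and 833 of all genes fell. After quantile normalization 12 fell and 1 rose, the median was -0.10 and 1261 of all genes fell. At a threshold of 0.01, 998 of all genes fell against 2304 at 0.05. Leaving out 1 library, 13 to 16 members fell and none rose, their median ran from -0.19 to -0.14, and 1407 (without DMSO replicate 2) to 2205 of all genes fell, 1486 without H182 replicate 2.

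Calls were gained by MIS18A without DMSO replicate 3 (adjusted p = 0.0495), CENPO without H182 replicate 3 (0.0339), CENPN with library weights (0.0497), BUB3 under 3 alternatives and CENPM with median-of-ratios scaling and quantile normalization. Changes near 0 switched sign without passing. With median-of-ratios scaling OIP5 was at 0.0936, CENPW 0.0702, CENPK 0.0323, PMF1 0.0247, ZWINT 0.0208 and SKA1 0.0164, and with quantile normalization OIP5 0.0597, CENPW 0.0506, CENPK 0.0146 and PMF1 0.0160. DSN1 was at -4.3e-05 with library weights. Leaving out 1 library, OIP5 ran from -0.0700 to 0.0599, CENPW from -0.0944 to 0.0477 and DSN1 from -0.0160 to 0.0199.

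With a replicate block 14 members fell (2059 of all genes), SKA2 and NSL1 dropping out. Deviations of same-numbered libraries from their group means correlated at -0.04 to 0.00, so no shared deviation was seen. With 3 libraries per group, such values cannot tell whether same-numbered libraries were prepared together, and the labels do not say. Depth is unknown, and 3 libraries per group limit how small a change can be seen.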
